A study of Mus musculus with 9 samples.

Results

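The genes described here are 9 that define or serve the helper lineages of CD4 T cells (Tbx21, Gata3, Bcl6, Eomes, Runx3, Il12rb2, Il23r, Ifng and Il17a), read in regulatory T (Treg) cells. They were taken by exact gene symbol and accounted for 10 of the 23521 probe sets that carry 1 symbol, or 9 of 22180 genes. Gata3 had a pair of probe sets and the other 8 genes had 1 each, and the probe set with the highest mean stood for the gene.

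The samples were 4 Mst1/Mst2-null (KO) and 5 wild-type (WT) preparations of sorted CD4+YFP+ Treg cells on the C57BL/6 strain, with 1 array each. KO cells came from Foxp3YFP-CreStk4f/fStk3f/f marrow, in which Cre made from the Foxp3 locus deletes Stk4 (Mst1) and Stk3 (Mst2) in cells that express Foxp3, and WT cells from Foxp3YFP-Cre marrow, which carries the same YFP and Cre. In either case the marrow had been mixed with CD45.1 WT marrow and given to RAG1-/- recipients 2 months earlier, and only CD45.2 cells were sorted, so cells of both groups developed beside WT competitor cells in hosts that lack T and B cells of their own but keep innate lymphoid and myeloid cells. The labels give no ages and do not say whether each sample of a group had its own chimera. The p-values therefore speak only of the spread among these 9 arrays, which may be technical.

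Helper lineages are set by transcription factors that restrain each other: T-bet (Tbx21) for Th1 cells, GATA3 for Th2 cells, RORγt for Th17 cells and Bcl6 for follicular helper cells. Treg cells can express the same factors at lower levels, and such cells are known for restraining the matching type of helper response. Signals through interleukin-2 and STAT5 are known to oppose Bcl6 and the Th17 programme in CD4 T cells. The comparison therefore asks whether loss of the kinases altered helper lineage transcripts in Treg cells, in a study whose title concerns interleukin-2 receptor and STAT5 signalling.

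Values are log2 RMA values (RMA corrects background, equalises arrays by quantiles and joins the probes of a probe set), and each difference is KO minus WT. Probe sets differ in how well they bind, so levels are not compared between genes. Of the 9 genes, 5 (Tbx21, Gata3, Bcl6, Runx3 and Ifng) had means above 4.05, the median of all probe sets, and the other 4 (Eomes, Il12rb2, Il23r and Il17a) lay below it, where signal was not shown to exceed background. The files hold no count of reads or cells, and fewer cells with a transcript cannot be told apart from less of it per cell.

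KO arrays correlated at 0.987 to 0.989 with the other arrays of their group over all genes, against 0.993 to 0.994 for WT arrays. Stk4 was 7.55, 7.83, 7.50 and 7.69 in KO arrays, against 7.84, 7.88, 8.09, 7.88 and 7.88 in WT arrays, and did not pass (limma adjusted p = 0.146). Each KO value lay below each WT value, but the probes may lie outside the deleted exons, which makes this no check on the knockout. Stk3 was not analysed here. Foxp3, which defines the sorted cells, averaged 10.72 ± 0.092 in KO arrays and 10.70 ± 0.049 in WT arrays (SD, n = 4 and 5).

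None of the 9 genes passed the test between KO and WT Treg cells (limma, adjusted p under 0.05 over all genes), where 2.32% of the 22180 genes did. At an unadjusted p under 0.05 there were 4 of the 9, all lower in KO (Bcl6, Tbx21, Ifng and Runx3), where 14.9% of all genes reached that level and 9.8% of all genes did so with a lower KO mean (5.05% with a higher one). The groups overlapped for each of the 9 genes, while they did not overlap for 6.16% of all genes. In sign alone, 6 of the 9 were lower in KO and 3 higher, with a median difference of -0.096, against 0.0023 over all genes. The plot of values by array shows these levels.

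**Figure D1:**
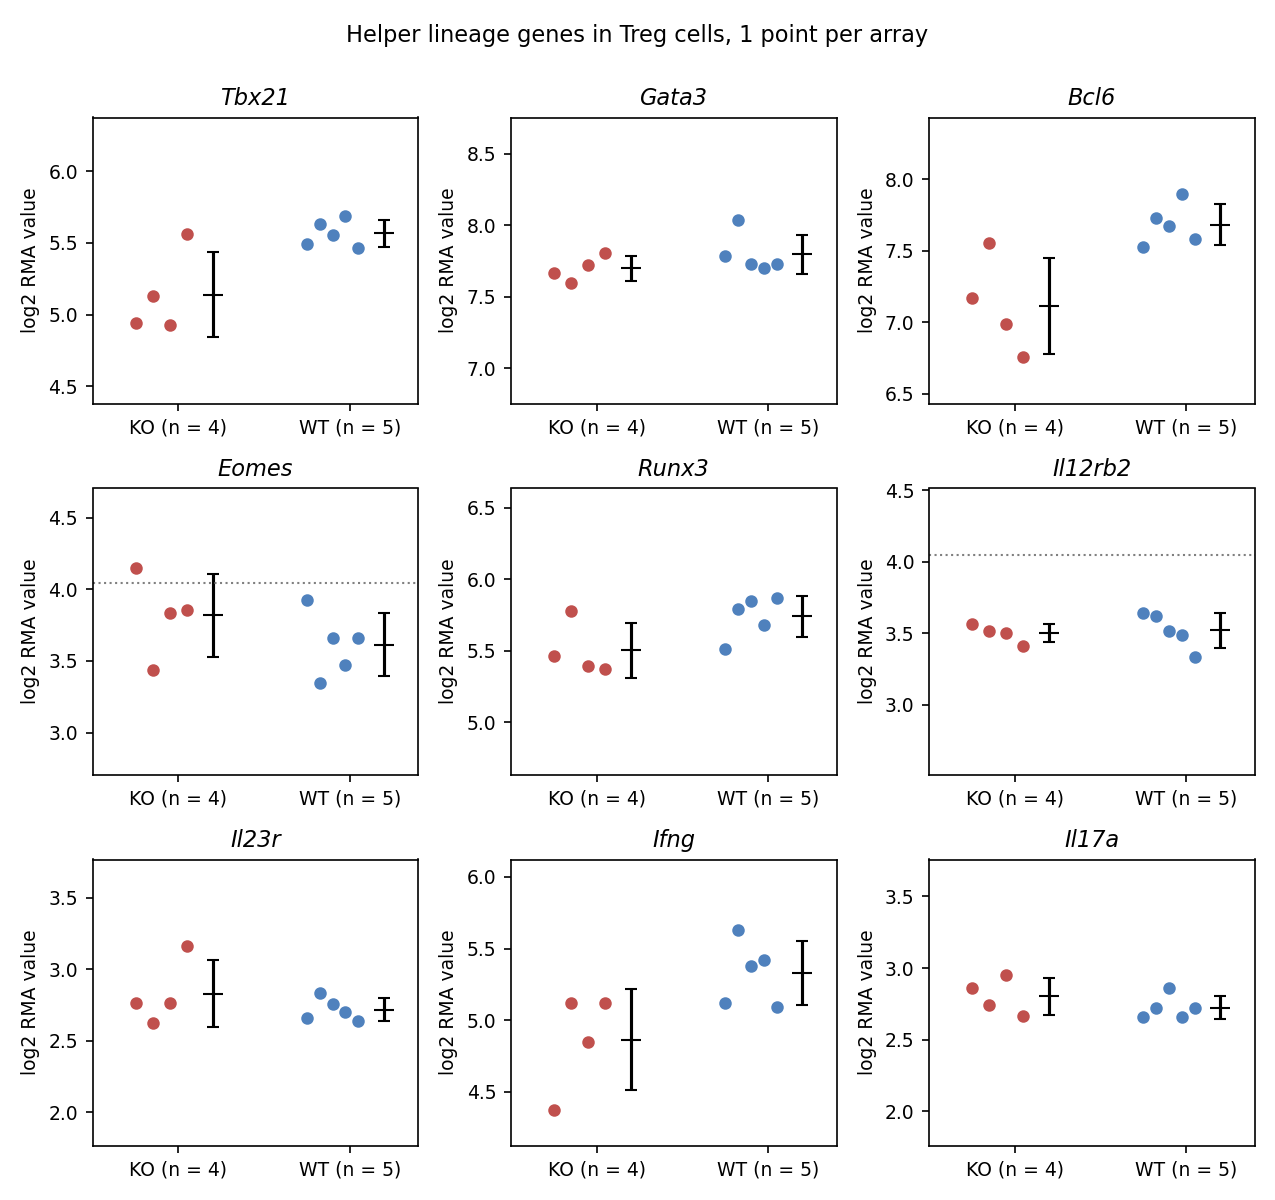
Log2 RMA value (vertical axis, 2 log2 units high in every panel) of the 9 helper lineage genes, 1 point per array, KO (n = 4) left of WT (n = 5), with mean and SD as black bars and the median of all probe sets (4.05) as a dotted line where it falls in the panel. For Bcl6, Tbx21 and Runx3, 3 KO arrays lie below every WT array and 1 lies among them.

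Bcl6, the repressor that drives follicular helper cells and follicular Treg cells, had the smallest p of the 9. It was 7.17, 7.55, 6.99 and 6.76 in KO arrays, against 7.53, 7.73, 7.68, 7.90 and 7.59 in WT arrays. In KO, 3 arrays lay below every WT array, and array 2 lay within the WT range. The mean was 7.12 ± 0.34 in KO and 7.68 ± 0.14 in WT (SD, n = 4 and 5), a difference of -0.57 ± 0.14 (SE, 95% interval from -0.88 to -0.25) that did not pass (limma adjusted p = 0.0779, place 745 by p among all genes). An exact two-sided permutation test of Bcl6 alone gave p = 0.0159. Without KO array 2 the difference was -0.71 and passed (limma adjusted p = 0.0145), whereas without any other array the adjusted p lay between 0.116 and 0.181. With all arrays kept, Bcl6 did not pass with a block for the replicate number (limma adjusted p = 0.2) or after quantile normalisation (0.104). Nor did it pass in the fit over all probe sets (limma adjusted p = 0.137). It passed when dim genes were left out (limma adjusted p = 0.0466). It also passed when arrays were weighted by their quality (limma adjusted p = 0.0362). Those weights come from the scatter of these same arrays, and KO array 2 had the lowest (0.53). The weighted fit is therefore not separate from leaving out that array.

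The promoters of Bcl6 are shown because STAT5 is known to bind this gene. The sequences are those of RefSeq on build GRCm38.p6, run from 250 bases before to 50 bases after a transcription start, and are written 5′ to 3′ on the strand of the gene. Capitals mark each match to the STAT motif TTCNNNGAA, which reads the same on both strands. The upstream start lies at chr16:23988803-23989102 (minus strand) and the downstream start at chr16:23981234-23981533 (minus strand).
Bcl6, upstream start: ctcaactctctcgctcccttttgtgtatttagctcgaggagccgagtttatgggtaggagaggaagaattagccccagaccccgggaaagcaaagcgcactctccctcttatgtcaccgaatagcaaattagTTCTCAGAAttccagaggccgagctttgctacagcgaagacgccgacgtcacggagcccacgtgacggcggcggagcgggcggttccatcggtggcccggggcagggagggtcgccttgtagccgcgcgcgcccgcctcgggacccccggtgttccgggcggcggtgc
Bcl6, downstream start: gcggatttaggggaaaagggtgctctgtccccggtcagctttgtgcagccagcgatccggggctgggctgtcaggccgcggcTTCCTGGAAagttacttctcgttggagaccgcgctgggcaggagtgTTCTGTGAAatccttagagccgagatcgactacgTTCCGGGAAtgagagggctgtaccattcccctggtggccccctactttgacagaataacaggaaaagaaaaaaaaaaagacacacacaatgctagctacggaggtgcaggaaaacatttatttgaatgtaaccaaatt
The upstream window held 1 match and the downstream window 3. Of 32851 promoter windows of the same length, 8.3% held at least 1. A match is a stretch of letters and not a measured binding site.

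Tbx21, which encodes the Th1 factor T-bet, was 4.94, 5.13, 4.93 and 5.56 in KO arrays, against 5.49, 5.63, 5.56, 5.69 and 5.47 in WT arrays. WT arrays lay within a narrow range and 3 KO arrays lay below all of them, whereas KO array 4 lay inside it. The difference was -0.43 ± 0.12 (SE, 95% interval from -0.70 to -0.15) and did not pass (limma adjusted p = 0.121), and the exact two-sided permutation p was 0.0317. Leaving out 1 array changed the call: without KO array 4 the difference was -0.57 with a limma adjusted p of 0.00794, and without any other array the adjusted p lay between 0.171 and 0.257. The array whose removal changed the call differed between Bcl6 and Tbx21, and KO array 4 had the highest KO value of Tbx21 and the lowest of Bcl6, as the plot of deviations by array shows.

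The promoter of Tbx21 is given for comparison with Bcl6 (chr11:97115282-97115581, minus strand, GRCm38.p6, RefSeq). It held no match to the STAT motif and so has no capitals.
Tbx21: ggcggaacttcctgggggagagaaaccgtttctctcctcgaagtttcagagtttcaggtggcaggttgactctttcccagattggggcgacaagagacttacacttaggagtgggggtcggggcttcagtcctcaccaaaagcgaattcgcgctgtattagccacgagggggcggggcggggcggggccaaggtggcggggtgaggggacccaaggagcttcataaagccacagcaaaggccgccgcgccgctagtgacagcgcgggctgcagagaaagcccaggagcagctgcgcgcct

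Runx3 partners T-bet in Th1 and cytotoxic cells and silences Cd4 in the CD8 lineage. It was 5.47, 5.78, 5.39 and 5.37 in KO arrays, against 5.51, 5.79, 5.85, 5.68 and 5.87 in WT arrays. As for Bcl6, only KO array 2 lay within the WT range. The difference was -0.24 ± 0.10 (SE, 95% interval from -0.47 to -0.0072) and did not pass (limma adjusted p = 0.315, exact permutation p = 0.0714).

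Eomes, the other T-box factor, which is known from cytotoxic and memory T cells and natural killer cells, was dim. It was 4.15, 3.44, 3.83 and 3.86 in KO arrays, against 3.93, 3.34, 3.66, 3.47 and 3.66 in WT arrays, with 1 of the 9 arrays above the median of all probe sets. KO array 1 lay above every WT array and the other 3 KO arrays lay within the WT range. The difference was 0.21 (95% interval from -0.12 to 0.54, limma adjusted p = 0.589), and was 0.097 without KO array 1 and 0.33 without KO array 2.

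Gata3 directs Th2 cells and is also known to be needed by Treg cells at tissue sites. Its brighter probe set gave 7.67, 7.60, 7.72 and 7.81 in KO arrays, against 7.78, 8.04, 7.73, 7.70 and 7.73 in WT arrays. KO arrays 1 and 2 lay just below the lowest WT array and the other 2 lay within the WT range, which WT array 2 widened at its upper end. The difference was -0.096 (95% interval from -0.28 to 0.087, limma adjusted p = 0.658), and was -0.063 without KO array 2 and -0.036 without WT array 2. The dimmer probe set averaged 5.91 ± 0.15 in KO and 6.03 ± 0.20 in WT (SD, n = 4 and 5), a difference of -0.12 (limma adjusted p = 0.73 over all probe sets). Both differences were smaller than the SD of the WT arrays. A drop of more than 0.28 log2 units in the brighter probe set lay outside the interval.

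Il12rb2 encodes the signalling chain of the interleukin-12 receptor, which feeds the Th1 programme, and Il23r the specific chain of the interleukin-23 receptor, which sustains Th17 cells. Il12rb2 lay between 3.42 and 3.57 in KO arrays (median 3.51) and between 3.34 and 3.64 in WT arrays (median 3.52). Il23r was 2.77, 2.63, 2.76 and 3.16 in KO arrays, against 2.66, 2.84, 2.75, 2.70 and 2.63 in WT arrays. No array exceeded the median of all probe sets for either gene, and the groups overlapped, with KO array 4 of Il23r above and KO array 2 barely below every WT array. The differences were -0.022 for Il12rb2 (95% interval from -0.19 to 0.14, limma adjusted p = 0.926) and 0.11 for Il23r (95% interval from -0.12 to 0.34, limma adjusted p = 0.681). Most of the Il23r difference came from KO array 4, without which it was 0.0014, and without KO array 2 it was 0.18.

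Ifng encodes interferon-γ, the main Th1 cytokine and a direct target of T-bet. It was 4.37, 5.12, 4.85 and 5.12 in KO arrays, against 5.12, 5.63, 5.38, 5.42 and 5.09 in WT arrays. KO arrays 1 and 3 lay below every WT array, and KO arrays 2 and 4 lay level with the lower WT arrays. The difference was -0.46 ± 0.17 (SE, 95% interval from -0.83 to -0.097), short of the threshold (limma adjusted p = 0.206, exact permutation p = 0.0635). Without KO array 1, the lowest, it was -0.30 (limma adjusted p = 0.357).

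The promoter of Ifng is shown for the same motif, again in capitals (chr10:118440796-118441095, plus strand, GRCm38.p6, RefSeq).
Ifng: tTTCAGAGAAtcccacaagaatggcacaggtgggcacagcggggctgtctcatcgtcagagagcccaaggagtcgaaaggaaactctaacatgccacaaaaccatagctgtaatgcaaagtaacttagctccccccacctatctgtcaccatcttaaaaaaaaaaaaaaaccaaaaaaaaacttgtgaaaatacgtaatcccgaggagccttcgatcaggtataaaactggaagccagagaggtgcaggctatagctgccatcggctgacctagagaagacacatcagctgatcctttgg
Ifng held 1 match, near the 5′ end of its window. All 9 genes were found in the promoter table, with 11 windows in all, and 4 of the 11 held the STAT motif (both of Bcl6, Ifng and Il12rb2). The T-box half-site TCACAC, or GTGTGA on the other strand, was in 2 of the 11 (Il17a and Il12rb2) and in 14.5% of all windows. The RUNX motif TGTGGT, or ACCACA on the other strand, was in 2 (Il17a and 1 of the pair of Runx3 windows) and in 16.8% of all windows. These 2 motifs are not marked in the printed sequences because none of the 4 windows holds them. The absence of these letters from a window says nothing of the factors elsewhere in the gene.

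**Figure D2:**
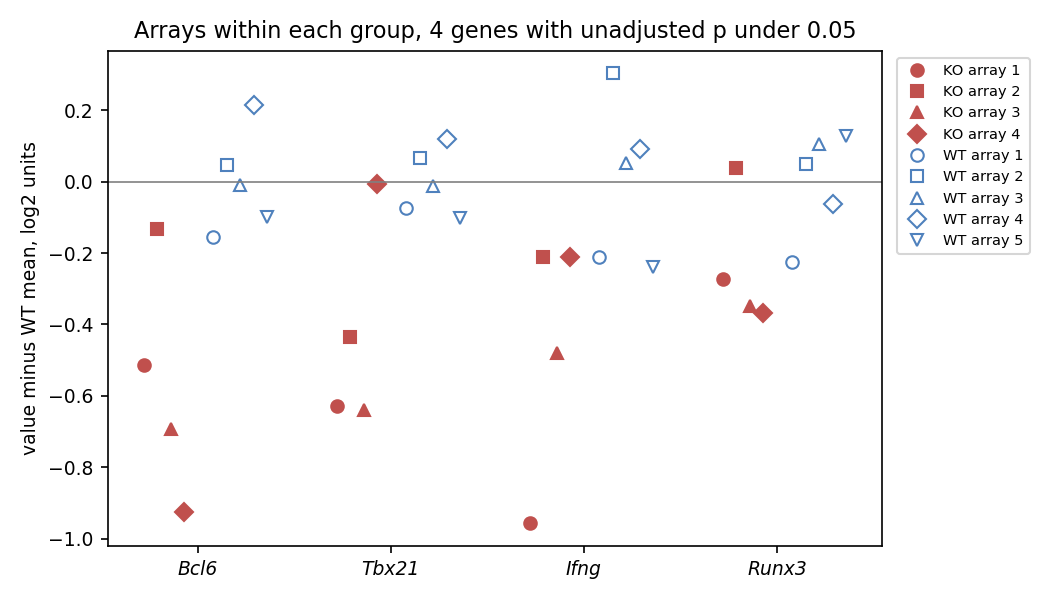
Value of each array minus the WT mean (vertical axis, log2 units) for the 4 genes with an unadjusted p under 0.05, with KO arrays as filled red symbols left of WT arrays as open blue symbols and 1 symbol shape per array number. KO array 2 stands highest of the KO arrays for Bcl6 (-0.13) and Runx3 (0.039), and KO array 4 stands highest for Tbx21 (-0.0064).

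Il17a, the cytokine gene that names Th17 cells, was 2.86, 2.74, 2.95 and 2.66 in KO arrays, against 2.66, 2.72, 2.86, 2.65 and 2.72 in WT arrays. KO arrays 1 and 3 lay above the highest WT array, array 1 barely, and the other 2 KO arrays lay within the WT range (difference 0.079, 95% interval from -0.089 to 0.25, limma adjusted p = 0.699). The difference was 0.030 without KO array 3 and 0.13 without KO array 4. For the 4 dim genes a change in a transcript below the reach of the probes would not be seen in these values. The plot of differences sets the 9 intervals side by side.

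**Figure D3:**
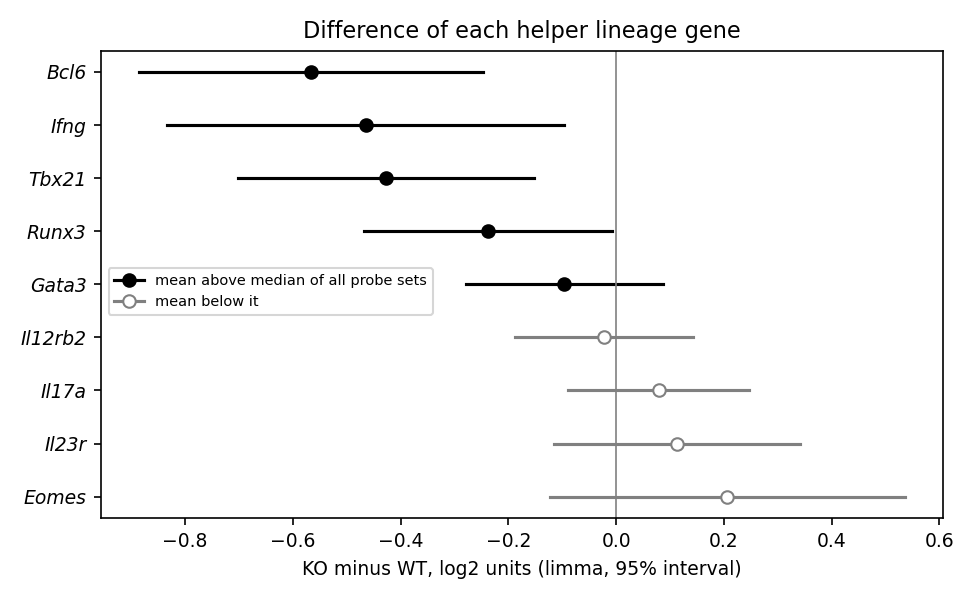
Difference between KO (n = 4) and WT (n = 5) Treg cells (horizontal axis, log2 units, negative where KO is lower) with its 95% interval from limma, for genes with means above (black, filled) and below (grey, open) the median of all probe sets. Intervals of Bcl6, Ifng, Tbx21 and Runx3 lie below 0 before adjustment over all genes, and none of the 9 genes passed after it.

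KO arrays scattered more than WT arrays for 7 of the 9 genes, all but Gata3 and Il12rb2, where 59.2% of all genes and 66.8% of the 11321 genes above the median showed a larger KO than WT SD. The SD in KO over that in WT was 3.21 for Tbx21, 2.85 for Il23r and 2.35 for Bcl6, against a median of 1.20 over all genes. After subtraction of each group's mean, pairs among the 5 brighter genes correlated at between -0.43 (Gata3 and Bcl6) and 0.67 (Ifng and Tbx21, Runx3 and Bcl6) over the 9 arrays, with -0.25 for Tbx21 and Bcl6 and -0.12 for Tbx21 and Runx3. Pairs of a brighter and a dim gene reached further both ways, from -0.82 for Ifng and Eomes and -0.71 for Tbx21 and Il17a to 0.80 for Tbx21 and Il23r, and Bcl6 and Il23r stood at -0.66. These coefficients describe 9 arrays that share their normalisation, and no test was made of them.

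The genes most like each of the 5 brighter genes were sought among 18972 named genes by the same correlation over 9 arrays. For Bcl6 they were Olfr821 (0.98), Rnf167 (0.96) and Pbrm1 (0.96). For Tbx21 they were Ndufb7 (0.98), Paqr6 (0.97) and Cdkn1a (0.96). For Ifng they were Ehbp1l1 (0.96), Hook2 (0.95) and Mknk2 (0.95). Gata3 was most like Wnt16, Slc7a8 and Vmn2r60 (each 0.96), and Runx3 most like Cacna1i (0.97), Galnt15 (0.96) and Lce1l (0.96). None of these 15 genes passed between KO and WT. Between 165 and 387 genes exceeded 0.8 for each of the 5, so with 9 arrays these names are only the upper end of a long list.

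Around the 9 genes, 7 lists of programme genes were read in the same fit. They held 142 measured genes, of which 18 fell and 1 rose in KO, or 13.4%, against 2.32% of all genes. All genes include the dim ones. With genes kept only where at least 4 arrays exceed the median of all probe sets, 6.24% of genes tested passed, and 34 programme genes. The lists were made with earlier results of these data known, so these shares are a description. The plot of programme genes shows each list.

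**Figure D4:**
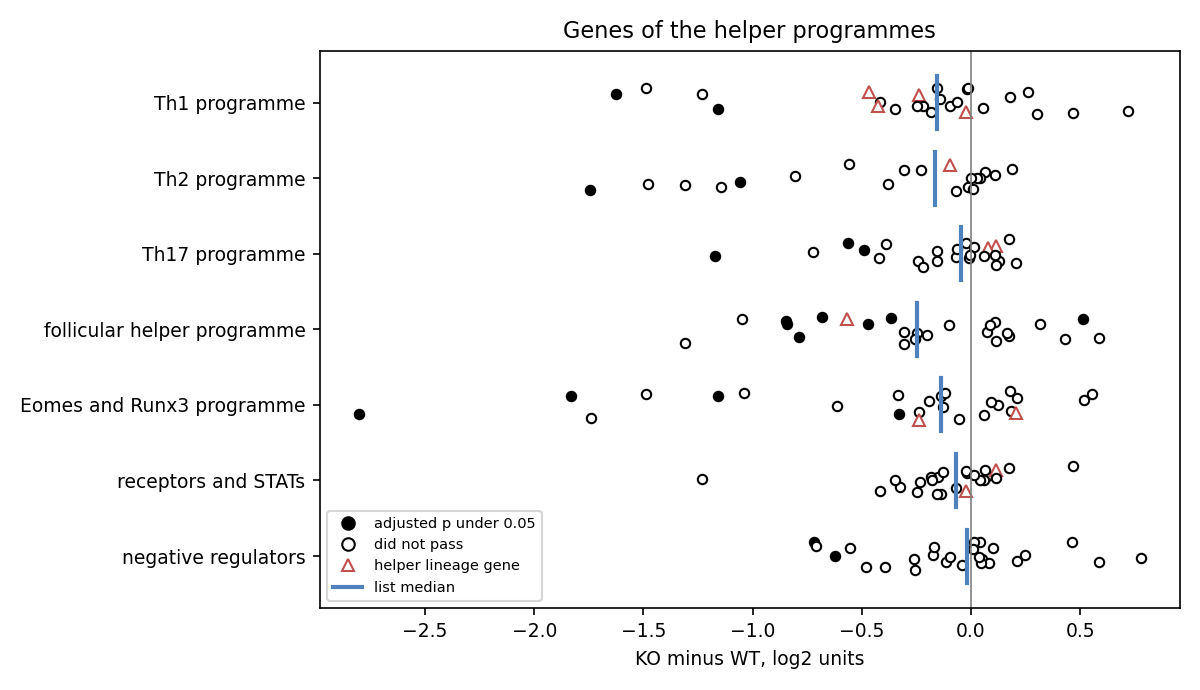
Difference between KO and WT (horizontal axis, log2 units) of each measured gene of the 7 lists, filled where the limma adjusted p is under 0.05, with helper lineage genes as red triangles and list medians as blue bars. All triangles are open, and the follicular helper list has the most filled points (6 lower, 1 higher).

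In the follicular helper list, 6 of 25 measured genes fell, 1 rose and 18 did not pass (median -0.25), where 1.89% of all genes fell and 0.428% rose. At an unadjusted p under 0.05 (limma), 11 were lower and 4 higher, where 9.8% and 5.05% of all genes were. Neither this list nor the others were sorted by whether the cells concerned hold more or less of a transcript. Counts and medians of the lists therefore do not measure a rise or fall of a programme. Sh2d1a, the adaptor SAP that T cells need for lasting contact with B cells, fell to 7.05 ± 0.091 in KO, against 7.89 ± 0.14 in WT (SD, n = 4 and 5, limma adjusted p = 0.000941). Icos, the costimulator of follicular cells, fell 1.60-fold, and P2rx7, an ATP-gated receptor, 1.29-fold. Cxcr5, the chemokine receptor that leads cells into follicles, fell 1.73-fold and Tox, a nuclear factor, 1.39-fold. Btla, an inhibitory receptor, was the gene that rose (1.43-fold). Calls of Sh2d1a and Icos stood without any 1 array, whereas Cxcr5 and Tox each lost theirs without 7 of the 9 arrays (limma adjusted p up to 0.101 for Cxcr5 without KO array 1 and up to 0.0813 for Tox without KO array 3). P2rx7 lost its call without 4 arrays (up to 0.0558, without KO array 1) and Btla without KO array 1 (0.0554).

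In the Th1 list, which holds 4 of the 9 genes, Cxcr3 and Nkg7 fell of 25 measured and 23 did not pass (median -0.16). Cxcr3, a chemokine receptor whose gene T-bet activates, was 6.54 ± 0.44 in KO and 8.16 ± 0.32 in WT (SD, n = 4 and 5), or 3.08-fold lower (limma adjusted p = 0.00475). Nkg7, a granule membrane gene, fell 2.23-fold (limma adjusted p = 0.01). In both genes all KO arrays lay below all WT arrays, unlike Tbx21 and Ifng, though the difference between genes was not tested.

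The Th2 list had 2 falls among 20 measured genes and 18 that did not pass (median -0.16), in Nfil3, a leucine zipper factor (2.08-fold, limma adjusted p = 0.0166), and Il10, an inhibitory cytokine that Treg cells share with Th2 cells (3.36-fold, limma adjusted p = 0.0216). Without KO array 1 neither passed (0.0554 for Nfil3 and 0.0706 for Il10), and calls were lost without 3 and 4 of the 9 arrays. The Th17 list had 3 falls among 24 and 21 that did not pass (median -0.044). These were Batf, a factor that opens chromatin for Th17 and effector Treg genes (2.25-fold, limma adjusted p = 0.00627), Hif1a (1.48-fold), which encodes the oxygen-regulated subunit of the transcription factor HIF-1, and Rbpj, the nuclear partner of Notch (1.41-fold). Rbpj lost its call without 5 arrays (limma adjusted p up to 0.0699, without WT array 2). Il23r and Il17a of the same list did not pass. With the lowest instead of the highest probe set per gene, Hif1a and Rbpj did not pass.

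The cytotoxic list around Eomes and Runx3 had 4 falls of 25 and 21 that did not pass (median -0.14). Cst7, a protease inhibitor of cytotoxic granules, fell 3.56-fold, Itgae 6.98-fold, Nkg7 2.23-fold and Il2rb, the interleukin-2 receptor β chain, 1.26-fold, the last losing its call without 8 of the 9 arrays (limma adjusted p up to 0.0839, without KO array 1). Itgae, the αE integrin chain, is known as a target of Runx3. Of the 25 measured receptors, Janus kinases and STATs upstream of the 9 genes, none passed (limma, median -0.070). In that list 6 were lower and 1 higher at an unadjusted p under 0.05 (limma), where 9.8% and 5.05% of all genes were. The smallest p values there belonged to Il18rap, a chain of the interleukin-18 receptor (difference -1.23, limma adjusted p = 0.064), and Jak2 (difference -0.32, limma adjusted p = 0.0641). Among 26 negative regulators, 2 fell and 24 did not pass (median -0.016). Those that fell were the Ikaros family genes Ikzf4 (1.54-fold, limma adjusted p = 0.0145) and Ikzf2 (1.65-fold, limma adjusted p = 0.033). Ikzf2 lost its call without 7 of the 9 arrays (up to 0.0908, without WT array 4). At an unadjusted p under 0.05 (limma), 8 genes of this list were lower and 5 higher, where 9.8% and 5.05% of all genes were.

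Markers of other cells that express the 9 genes were read beside them. The Treg and CD4 markers (6 of 6 measured, all above the median of all probe sets) averaged 9.70 to 9.86 in KO arrays and 9.98 to 10.06 in WT arrays, and 1 of them, Ikzf2, fell. Natural killer markers (4 of 6 measured) averaged 3.04 to 3.29 in KO arrays and 3.07 to 3.25 in WT arrays, and each of the 4, among them the defining gene Ncr1 and Eomes, itself 1 of the 9 genes, was dimmer than that median. CD8 markers (4 of 4 measured) averaged 4.79 to 5.03 in KO and 4.58 to 4.97 in WT. Markers of γδ T cells (2 of 4 measured, 1 of them Il17a itself) averaged 3.85 to 4.01 in KO and 3.66 to 3.95 in WT. B cells also express Bcl6, and their markers (4 of 6 measured) averaged 5.49 to 6.44 in KO and 5.12 to 6.37 in WT. Myeloid markers (6 of 6) averaged 5.10 to 6.47 in KO and 5.11 to 5.91 in WT. Both of these lists were highest in KO array 4 (6.44 and 6.47), the array with the lowest Bcl6 and the highest Il23r. The B cell mean was nearly as high in WT array 1 (6.37), where Bcl6 was 7.53, the lowest of the WT arrays. KO array 3, with the lowest B cell mean of the KO arrays (5.49), had Bcl6 at 6.99, below KO arrays 1 and 2. Among the myeloid markers S100a8, picked out after its values were seen, had a KO SD of 2.84, against at most 0.73 for the others. Markers of conventional CD4 T cells (5 of 6 measured) averaged 5.78 to 6.70 in KO and 5.77 to 5.92 in WT. Dapl1 (difference 1.68) and Igfbp4 (0.60), named after their values were seen, rose. In the rest of this list Il7r was lower in KO (-0.22) and Cd40lg (0.17) and the dim Il2 (0.43) higher, and none of them passed. Markers of innate lymphoid cells (2 of 5) averaged 5.86 to 6.43 in KO and 6.11 to 6.30 in WT. The part of such other cells in the values of the 9 genes was not tested.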

How the data were processed

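Treg cells of 4 KO and 5 WT samples were each measured on 1 Affymetrix array. The authors deposited log2 values, which the submitters' processing notes credit to RMA and to Affymetrix Expression Console 1.1, from NuGEN-amplified RNA per the labels' protocols. The table held 41345 probe sets, of which 23521 had 1 gene symbol in the platform annotation, 1814 several and 16010 none. Entrez identifiers of 23328 matched the reference table (GRCm38.p6, names only). No scanner values were used, so depth over background is unknown and the number of arrays limits precision.

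KO was compared with WT over 22180 genes by limma 3.58.1 (R 4.3.3, lmFit and eBayes, two-sided, Benjamini-Hochberg, threshold 0.05) and checked on simulated data. Single genes also had an exact two-sided permutation test of the difference in means. Genes were named by a written rule: the 9 genes, Foxp3, Stk4 and Stk3, up to 6 passing genes of each list by p (or the 2 with the smallest p), and the 3 most similar genes of each brighter member. The members and lists were chosen with earlier results of these data known. Same-numbered KO and WT arrays did not deviate together (correlations from -0.115 to 0.042, against -0.218 to 0.159 for arrays of unlike number). This gave no sign that numbers pair the arrays, but so few pairs cannot settle it. No label names a batch. Serial numbers in the titles put all WT before all KO samples, so their order and genotype cannot be told apart. Python 3.11.15 (scipy 1.17.1, numpy 2.4.6, pandas 2.3.3) made the tables and matplotlib 3.10.9 the plots.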

Additional observations from a re-analysis of the deposited data

Results flagged for a closer look

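The Gata3 value of WT array 2 (8.04) stood apart from the other WT arrays: its gap to the nearest of them was 0.750 of the group's range, above Dixon's 95% critical value of 0.71 for 5 samples. Of 18 groups checked (the 9 genes in KO and in WT), 1 had such an array, and chance alone flags about 1 in 20. Without WT array 2 the Gata3 difference was -0.036 (limma adjusted p = 0.879), against -0.096 (0.658) with all arrays.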

How the results depend on the processing

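Over up to 20 alternative settings, Tbx21, Gata3, Bcl6, Runx3 and Ifng stayed lower in KO and Eomes, Il23r and Il17a higher. Il12rb2 turned to 0.0061 without KO array 4, 0.0079 without WT array 1, 0.0030 without WT array 2 and 0.012 without KO arrays 2 and 4, with adjusted p values from 0.977 to 0.993, and ranged from -0.068 to 0.0079 with 1 array left out. Of the 9 genes, 0 passed in the original fit, and leaving out 1 array gave 0 to 1. With genes kept only where at least 4 arrays exceed the median of all probe sets (11411 genes tested), 1 passed (Bcl6, limma adjusted p = 0.0466), where 6.24% of all genes tested did (712 genes). With array weights, of which KO array 2 had the lowest (0.53), 1 passed (Bcl6, 0.0362), where 2.6% of all genes did. Without KO arrays 2 and 4, which correlate least with their group but are also those whose removal changed the calls of Bcl6 and Tbx21, 2 passed (Bcl6, 0.0295, and Tbx21, 0.0084), where 3.31% of all genes did. That setting was chosen after seeing the data, so it is no independent support. Quantile normalisation moved Gata3 to -0.018 and Il17a to 0.051, and array weights moved no difference of the 9 past the threshold but that of Bcl6. With Hspa1a and Hspa1b as covariate, also chosen after seeing the data, none passed (Bcl6, 0.0998). With a block for the replicate number, which showed no sign of pairing these arrays, 0 of the 9 genes, 178 of all genes (515 without it) and 10 of the programme genes (19 without it) passed. Leaving out 1 array gave 271 to 594 of all genes and 9 to 28 programme genes. The filter on dim genes gave 34 programme genes, where 6.24% of all genes tested passed, and the fit over all probe sets 12, where 1.28% of probe sets passed, against 2.32% of genes in the original fit. Only Bcl6 (4 settings) and Tbx21 (2 settings) of the 9 passed in any alternative. Of the 19 programme genes, 7 passed under all 20 alternatives (Batf, Cst7, Cxcr3, Ikzf4, Itgae, Nkg7 and Sh2d1a). The filter tests fewer genes, and apart from that the cause of these shifts was not tested.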

Other observations

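Several of the deposited values are identical between arrays. For Gata3 and Eomes, WT arrays 3 and 5 share a value (7.73 and 3.66), for Il17a WT arrays 2 and 5 (2.72) and for Ifng KO arrays 2 and 4 (5.12), in each case the median of the 9 arrays. The same held for 18095 of 41345 probe sets (43.8%), in which 2 or more arrays sat exactly at the median of the 9, while 1534 (3.71%) had arrays tied at another value. Id3, singled out after its values were seen, had 6.43 in all 5 WT arrays, so its WT spread of 0 is not a measure of biological spread. The part of such ties in the spread of the 9 genes was not tested.

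A further probe set names Gata3 together with a pair of other transcripts and was left out of the 10. It was 3.02, 3.30, 3.16 and 3.96 in KO arrays, against 3.03, 3.16, 3.49, 3.43 and 3.30 in WT arrays.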
